A study of Mus musculus with 4 samples.

Results

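The alpha and delta cells of the pancreatic islet were followed through 9 marker genes that are neither hormones nor transcription factors. They comprised 7 markers of alpha cells (Ttr, Gc, Slc7a2, Slc38a5, Dpp4, Fap and Loxl4) and 2 markers of delta cells (Rbp4 and Ghsr). The genes were taken from a list by symbol. All 9 were found among the 52636 genes of the table, and 8 passed the low-count filter, the exception being Fap. RNA came from whole mouse islets, with 2 libraries from wild-type mice (control) and 2 from Tspan7 knockout mice of genotype Tspan7y/-. Tspan7 lies on the X chromosome and encodes a membrane protein of the tetraspanin family, and the comparison asks what its loss does to islet RNA. The labels name no Cre driver and give no age, and the islets of both groups were stored in Trizol before RNA extraction. Knockdown is the word in the series text, and knockout in the sample labels.

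Alpha cells secrete glucagon, which raises blood glucose, and delta cells secrete somatostatin, which restrains both alpha and beta cells from within the islet. Alpha cells take up amino acids avidly, and circulating amino acids stimulate them to secrete and to divide. Delta cells carry the receptor for the stomach hormone ghrelin, through which ghrelin releases somatostatin. Several of the markers encode proteins better known from other organs: transthyretin (Ttr), vitamin D-binding protein (Gc) and retinol-binding protein (Rbp4) are plasma carriers made in the liver, and Fap is a surface protease of activated fibroblasts.

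The libraries held 7855665 to 9377220 counts, and levels are given as CPM (counts relative to library size) after scaling by the trimmed mean of M-values. Tspan7 stood at 228 and 191 CPM in the controls but at 0.312 and 0.265 CPM in the knockout libraries, which matched the labels. The glucagon gene Gcg (6700 ± 1216 CPM, SD, n = 2 control libraries) and the somatostatin gene Sst (930 ± 228 CPM) were abundant, so both cell types were represented in the RNA. In RNA from whole islets, fewer cells of a type and less RNA per cell cannot be told apart. No label says that the 2 libraries of a group came from separate animals, so p-values reflect only how far these samples scatter, and that scatter may be technical.

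None of the 8 tested markers passed the test for a difference between knockout and control islets. With edgeR's quasi-likelihood test 0 of 8 passed an adjusted p of 0.05, and 0 of 8 had an unadjusted p under 0.05. DESeq2 and limma-voom also called 0. Over all 16924 genes tested, 0.00591% were called (1 gene, Tspan7) and 3.51% had an unadjusted p under 0.05. Of the 8 log2 fold changes (knockout against control) 4 were positive and 4 negative. Their median was 0.01 and they ran from -0.21 to 0.23, beside a median of 0.003 over all tested genes. The 95% confidence intervals (CI) all included 0. Between these samples they were narrow enough to exclude a doubling or a halving for Ttr, Slc7a2, Dpp4, Rbp4 and Ghsr. For Gc, Slc38a5 and Loxl4 they were not. The intervals carry the same limit as the p-values, since the scatter they rest on may be technical.

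**Figure D1:**
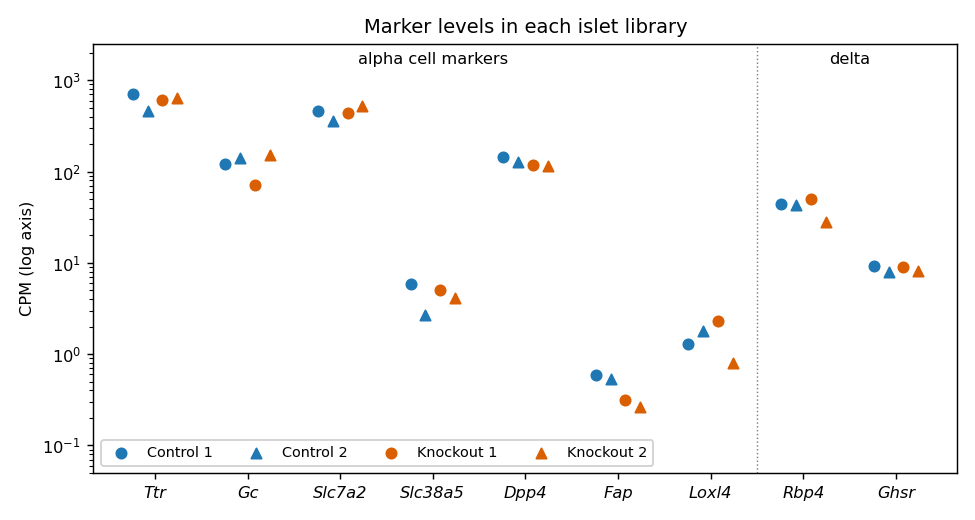
Level of each of the 9 markers in CPM (log axis) in the 2 control libraries (blue) and the 2 knockout libraries (orange), with replicate 1 as circles and replicate 2 as triangles. Ttr, Slc7a2, Gc and Dpp4 lie above 70 CPM in every library, Fap below 1 CPM, and the groups are apart only for Dpp4 and Fap.

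Levels were compared between genes after division by the exon length of each gene, in CPM per kilobase. Ttr was the highest marker, at 513 ± 89.9 CPM per kilobase (SD over the 4 libraries), against 4467 ± 494 for Gcg and 1315 ± 188 for Sst. Gc followed at 65.5 ± 19.6, Slc7a2 at 48.6 ± 7.23, Rbp4 at 30.8 ± 7.04 and Dpp4 at 19.9 ± 1.94 CPM per kilobase. Slc38a5 (1.96 ± 0.60), Ghsr (1.92 ± 0.148), Loxl4 (0.367 ± 0.152) and Fap (0.0751 ± 0.0284) were far lower. The ranges over the 4 libraries overlapped for 3 pairs of neighbours in this order: Gc with Slc7a2, Rbp4 with Dpp4, and Slc38a5 with Ghsr.

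Among the secreted carriers, Ttr encodes the plasma carrier of thyroxine, which also holds retinol-binding protein in the circulation. Its level was 715 and 463 CPM in control replicates 1 and 2, and 609 and 646 CPM in knockout replicates 1 and 2. The control libraries were the highest and the lowest of the 4, and the knockout libraries lay between them. The log2 fold change was 0.09 ± 0.20 (SE, 95% CI -0.38 to 0.56, adjusted p = 0.9997). It was 0.44 without control replicate 1 and -0.19 without control replicate 2.

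Gc encodes the vitamin D-binding protein. It measured 120 and 140 CPM in the control libraries and 70.8 and 153 CPM in the knockout libraries, so that 1 knockout library was the lowest and the other the highest of the 4. Knockout replicate 2 held 2.17 times the level of knockout replicate 1, and 2.43% of all tested genes differed at least 2-fold in that direction between these libraries. Gc had a log2 fold change of -0.21 ± 0.38 (95% CI -1.18 to 0.76, adjusted p = 0.9997). It was 0.24 when knockout replicate 1 was left out and -0.87 when knockout replicate 2 was, so its direction was set by which knockout library entered.

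Rbp4, the delta cell marker of this class, encodes the carrier of retinol in plasma. Its control libraries were nearly equal, at 43.7 and 43.4 CPM. The knockout libraries lay on either side, at 50.5 CPM in replicate 1 and 28.1 CPM in replicate 2. Rbp4 had a log2 fold change of -0.14 ± 0.26 (95% CI -0.75 to 0.47, adjusted p = 0.9997), with -0.63 when knockout replicate 1 was left out and 0.21 when knockout replicate 2 was.

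The 2 amino acid transporters differed in abundance by a large margin. Slc7a2 encodes a cationic amino acid transporter that carries arginine and lysine. It measured 457 and 360 CPM in the control libraries and 437 and 520 CPM in the knockout libraries, with control replicate 1 above knockout replicate 1. Its log2 fold change was 0.23 ± 0.16 (95% CI -0.14 to 0.60, adjusted p = 0.9997). The value was 0.07 without control replicate 2 and 0.41 without control replicate 1. It was 0.35 when knockout replicate 1 was left out and 0.10 when knockout replicate 2 was. A long noncoding gene on the opposite strand, Gm26584, overlaps exons of Slc7a2. It had 137 to 211 counts where Slc7a2 had 3390 to 4209, and whether the authors' counting used strand is not given in the sources used here.

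Slc38a5 encodes a transporter of glutamine and other neutral amino acids that alpha cells use when they proliferate in response to high amino acid levels. It was rare in these islets, with 49 and 25 counts (5.80 and 2.66 CPM) in control islets against 48 and 31 counts (4.99 and 4.11 CPM) in knockout islets. The knockout libraries lay between the control libraries, as they did for Ttr. Slc38a5 had a log2 fold change of 0.12 ± 0.39 (95% CI -0.78 to 1.03, adjusted p = 0.9997). Leaving out control replicate 1 gave 0.78, leaving out control replicate 2 gave -0.34, and leaving out knockout replicate 1 gave -0.03.

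The 2 surface peptidases, Dpp4 and Fap, are related serine proteases that cleave peptides after proline. Dpp4 inactivates the incretin hormones. It was the only tested marker whose groups did not overlap, at 143 and 127 CPM in the control libraries and 119 and 115 CPM in the knockout libraries. Groups did not overlap in 30.3% of all tested genes, and in 15.0% with the knockout libraries lower, so 1 of 8 is not above that share. Dpp4 had a log2 fold change of -0.20 ± 0.14 (95% CI -0.51 to 0.11, adjusted p = 0.9997), and it was -0.11 without control replicate 1. An antisense gene, Gm13561, shares exonic bases with Dpp4 and had 5 to 13 counts where Dpp4 had 869 to 1207.

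Fap gave 5 and 5 counts in control islets and 3 and 2 counts in knockout islets. The knockout counts are at or under the floor of 3 counts taken as detectable. Summed over libraries, Fap in knockout islets reached 52.0% of its control level, with an exact 95% binomial interval of 14.0% to 167% that covers counting error only. No difference in Fap was detectable at this depth.

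Loxl4 encodes a lysyl oxidase-like enzyme that cross-links collagen and elastin. Control islets gave 11 and 17 counts of it (1.30 and 1.81 CPM), and knockout islets 22 and 6 counts (2.29 and 0.795 CPM). As for Gc and Rbp4, the knockout libraries were the highest and the lowest of the 4. The log2 fold change was 0.03 ± 0.54 (95% CI -1.22 to 1.27, adjusted p = 0.9997). It was -0.96 when knockout replicate 1 was left out, 0.54 when knockout replicate 2 was, -0.18 without control replicate 1 and 0.29 without control replicate 2.

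Ghsr encodes the ghrelin receptor, which in the islet is a delta cell gene. It measured 9.23 and 7.86 CPM in the control libraries and 8.93 and 8.09 CPM in the knockout libraries. The 4 libraries differed little and the groups overlapped. For Ghsr the log2 fold change was -0.002 ± 0.23 (95% CI -0.53 to 0.53, adjusted p = 0.9998), with -0.12 to 0.11 when 1 library was left out (control replicate 2 and control replicate 1).

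**Figure D2:**
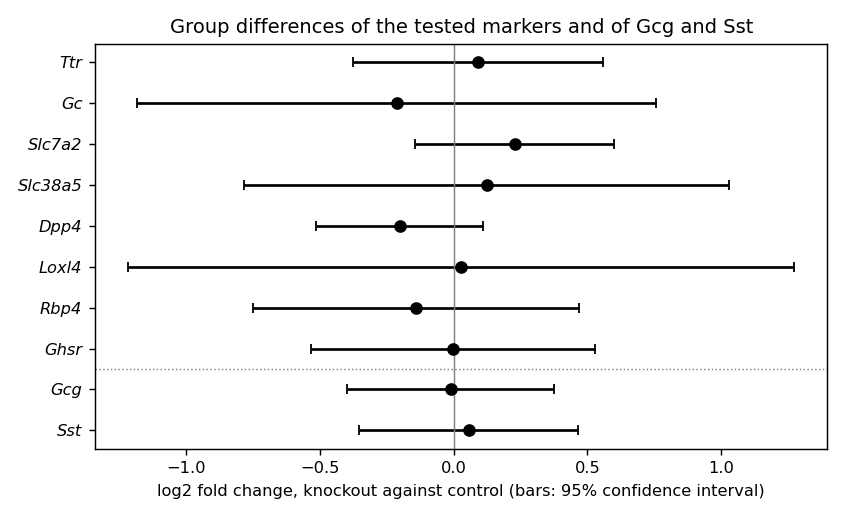
Log2 fold change of knockout against control islets (points) with 95% confidence intervals (bars) for the 8 tested markers and, under the dotted line, for Gcg and Sst. Every interval includes 0, with the narrowest markers at -0.20 (Dpp4) and 0.23 (Slc7a2) and the widest interval for Loxl4, from -1.22 to 1.27.

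For 7 of the 8 tested markers the larger difference between libraries of a single group exceeded the difference between the groups (on log2 of CPM + 0.5). The exception was Dpp4. The same held for 80.9% of all tested genes. The markers did not share a single pattern over the libraries. Ttr, Slc7a2, Slc38a5 and Ghsr were lowest in control replicate 2, as were Gcg and Sst. Rbp4 and Loxl4 were highest in knockout replicate 1 and lowest in knockout replicate 2. The alpha cell transcription factor genes Irx1 and Irx2 had the same order at both ends as Rbp4 and Loxl4. Gc ran the other way, lowest in knockout replicate 1 and highest in knockout replicate 2.

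Knockout replicate 2 held 0.557 times the Rbp4 level of knockout replicate 1 and 0.348 times its Loxl4 level. The ratio was 0.347 for Irx1 and 0.459 for Irx2, against 0.920 for Gcg. A ratio of 0.6 or less was found in 5.3% of all tested genes. Acinar markers moved over the same libraries, with a summed level of 5691 CPM in knockout replicate 2 and 1230 CPM in knockout replicate 1. In the controls the acinar sum was 2712 CPM in replicate 1 and 66.7 CPM in replicate 2. Control replicate 2 held 0.993 times the Rbp4 level of control replicate 1. That ratio was 1.388 for Loxl4, 1.485 for Irx1 and 1.387 for Irx2. The part of acinar markers in these differences was not tested.

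**Figure D3:**
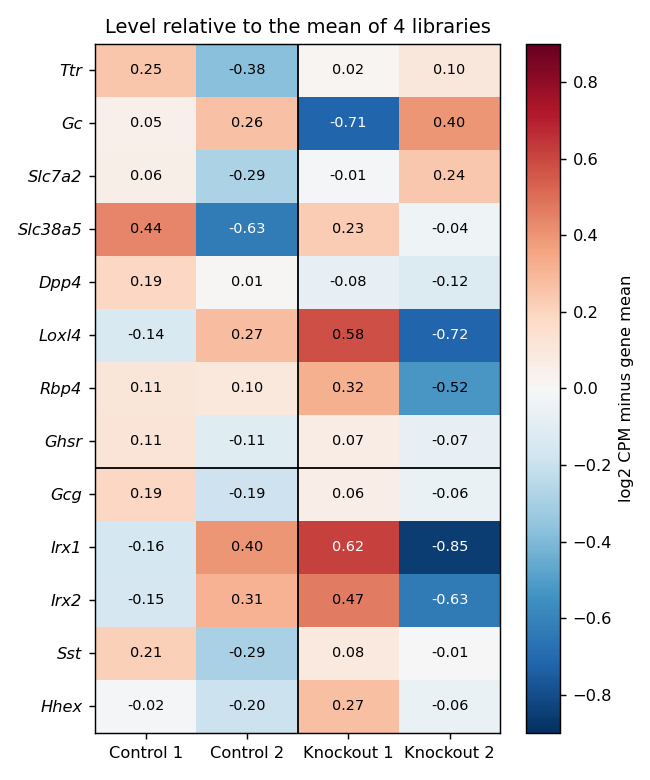
Log2 CPM of each gene minus its mean over the 4 libraries, for the 8 tested markers (above the horizontal line) and for hormone and transcription factor genes of alpha and delta cells. Columns are libraries, red is above and blue below the gene mean. Loxl4, Rbp4, Irx1 and Irx2 are red in knockout 1 and blue in knockout 2, and Gc shows the reverse, from -0.71 to 0.40.

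Relating each marker to the hormone of its cell type within a library removes the scaling between libraries. Per 1000 Gcg counts, Ttr gave 94.6 and 79.2 counts in control islets against 88.0 and 101 in knockout islets. Slc7a2 gave 60.5 and 61.7 against 63.1 and 81.7, so that both knockout libraries stood higher, replicate 1 by little. Dpp4 gave 18.9 and 21.7 against 17.2 and 18.1, with both knockout libraries lower, as in CPM, which came from the same Dpp4 counts. Gc was the least stable of the abundant markers, at 15.9 and 23.9 against 10.2 and 24.1. Per 1000 Sst counts, Rbp4 gave 40.0 and 56.5 against 50.6 and 30.0, and Ghsr 8.46 and 10.2 against 8.96 and 8.64. The 2 hormones kept their own proportion, with 144 and 132 Sst counts per 1000 Gcg counts in control and 144 and 147 in knockout islets.

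**Figure D4:**
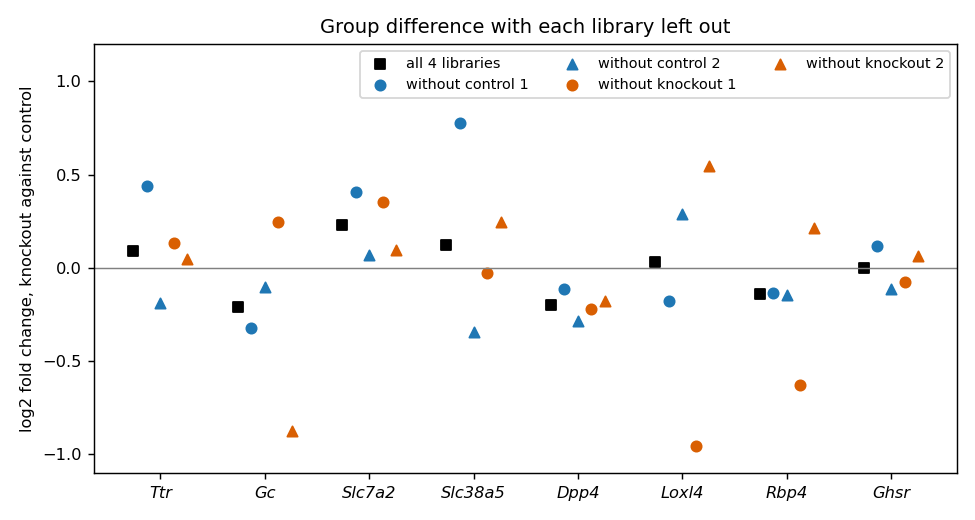
Log2 fold change of each tested marker with all 4 libraries (black squares) and with 1 library left out (blue for a control library, orange for a knockout library, circles for replicate 1 and triangles for replicate 2). Dpp4 stays below 0 and Slc7a2 above 0 in every case shown, and the other 6 cross 0.

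Hormone and transcription factor genes of the same cells that are reported here did not pass the test either. Of 4 alpha cell genes 3 were tested and 0 called, with a median log2 fold change of -0.06. Gcg stood at -0.01 ± 0.17 (95% CI -0.40 to 0.37). Irx1 stood at -0.06 ± 0.48 and Irx2 at -0.07 ± 0.37. For delta cells Sst stood at 0.06 ± 0.18 and Hhex, the delta cell transcription factor gene, at 0.24 ± 0.28. A further 6 alpha cell markers had a median of 0.20, with 0 called. Among them Gria3, an AMPA-type glutamate receptor subunit gene, measured 28.3 and 26.9 against 34.8 and 32.1 CPM (0.28 ± 0.15). A further 6 delta cell markers had a median of -0.05, with 0 called. Crhr2, a receptor gene for urocortins, had the smallest p of these, at 1.24 ± 0.60 (95% CI -0.13 to 2.62) on 3 to 17 counts per library.

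Genes that act with the carriers were examined next. Of 21 genes of retinoid handling 11 were tested and 0 called, 7 of them positive and 4 negative (median 0.03). Cyp26b1, which degrades retinoic acid, had the smallest p, at 3.31 and 1.38 CPM in control and 0.727 and 1.46 CPM in knockout islets (-1.12 ± 0.58). Rxra, a nuclear receptor partner of the retinoic acid receptors, was the most abundant, at 0.26 ± 0.18. The membrane receptor gene Stra6, through which cells take retinol from retinol-binding protein, had at most 1 count in any library. Of 6 genes of vitamin D handling only the receptor gene Vdr was tested. Vdr measured 202 and 131 CPM in control and 202 and 256 CPM in knockout islets (0.46 ± 0.22, 95% CI -0.06 to 0.98, adjusted p = 0.9997).

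Of 22 other transporters of cationic and neutral amino acids 19 were tested and 0 called, 7 of them positive and 12 negative (median -0.06). Slc38a4, a relative of Slc38a5, was the most abundant, at 512 and 460 CPM in control and 437 and 524 CPM in knockout islets. Slc7a3, a cationic transporter close to Slc7a2, was the only one of the 19 with an unadjusted p under 0.05. It gave 13 and 23 counts in control against 3 and 4 counts in knockout islets, so the groups were apart at a low level. Its log2 fold change was -2.25 ± 0.57 (adjusted p = 0.9997 in edgeR). Among all tested genes 3.51% had an unadjusted p under 0.05 in edgeR. Groups did not overlap for 2 of the 19 transporters, beside 30.3% of all tested genes. Slc3a2, the heavy chain that several of these transporters need at the cell surface, measured 186 and 190 against 161 and 162 CPM (-0.22 ± 0.13).

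All 8 relatives of Dpp4 and Fap among the prolyl peptidases were tested and 0 were called, and their values ran from -0.17 to 0.13 (median -0.02). Prepl was the most abundant, at 489 and 494 CPM in control and 518 and 448 CPM in knockout islets. Of the other 4 lysyl oxidases 2 were tested, Loxl2 at -0.06 ± 0.19 and Loxl3 at -0.29 ± 0.30. Of 9 genes of ghrelin and somatostatin signalling 4 were tested and 0 called. The somatostatin receptor gene Sstr3 was the most abundant of these, at 0.06 ± 0.14, while Sstr2, the receptor through which somatostatin acts on alpha cells, stood at 0.23 ± 0.38. Mboat4, the enzyme that acylates ghrelin, had at most 1 count in any library.

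Dpp4, Gcg and Fap are direct neighbours among the protein-coding genes of the reference, in that order. The neighbours were therefore read together. On the side of Dpp4, Slc4a10, a bicarbonate transporter gene, measured 59.3 and 72.7 CPM in control and 44.5 and 53.2 CPM in knockout islets (-0.44 ± 0.16, unadjusted p = 0.0277 and adjusted p = 0.9997 in edgeR). Tbr1, beyond it, had 1 to 6 counts and was not tested. On the side of Fap, the viral RNA sensor gene Ifih1 stood at -0.41 ± 0.17 (unadjusted p = 0.0446 and adjusted p = 0.9997 in edgeR) and Gca, a calcium-binding protein gene, at -0.15 ± 0.15. An unadjusted p under 0.05 in edgeR was found in 3.51% of all tested genes. In 15.0% of them the groups did not overlap, with the knockout libraries lower. Gcg, in the middle, stood at -0.01 ± 0.17 and was the most abundant by a wide margin, while Fap beside it was near the floor.

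The genes with the most similar pattern over the 4 libraries were named for Ttr and Rbp4 by the root mean square (RMS) difference of their centred log2 CPM, among 9841 genes. For Ttr these were Olfm3 (0.007), Vstm2l (0.017) and Tnfrsf9 (0.018), and 232 genes lay within 0.1. For Rbp4 they were Arid3a (0.031), Bicd2 (0.049) and Gcnt4 (0.057), and 46 genes lay within 0.1. Among the markers themselves Ttr was nearest to Sst (0.079) of the genes compared and Ghsr to Gcg (0.053). Ttr and Gc, both plasma carrier genes of alpha cells, differed by 0.52. With 4 libraries many genes share a pattern, and these values are a description.

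Because several markers are also expressed outside the islet endocrine cells, markers of other cell types were read in the same libraries. Of 6 plasma protein genes typical of liver, 5 were found in the table by symbol. The symbol Tf was not matched, so that gene is not covered here. Albumin (Alb) had 2 to 8 counts, Apoa1 at most 1, Ahsg 0 and Apoa2 12 to 22. The fibrinogen gene Fgb had 12 and 114 counts in control and 5 and 3 counts in knockout libraries (log2 fold change -3.84, adjusted p = 0.9997 in edgeR). The list summed to 3.43 and 14.2 CPM in control and 3.22 and 2.78 CPM in knockout islets. Of 5 fat cell genes Adipoq, Plin1, Lep and Cidec had at most 1 count per library and Fabp4, which endothelial cells also express, 33 to 71. That list summed to 5.09 and 7.55 CPM in control and 3.64 and 7.56 CPM in knockout islets. The part of either tissue in the Ttr, Gc and Rbp4 values was not tested. Fibroblast and stellate cell markers summed to 209 and 243 CPM in control and 160 and 205 CPM in knockout islets. Most of that sum was a single gene, Rgs5, at 168.0 and 184.1 against 124.3 and 164.5 CPM. Of 8 tested, 6 had negative values (median -0.45) and 0 were called. Col3a1, which had the smallest p of the list, measured 11.6 and 14.0 against 7.69 and 8.35 CPM, lower in both knockout libraries, as was Fap. Acta2 went the other way, at 2.84 and 1.28 against 2.91 and 3.71 CPM, and Col1a2 stood at 0.01 ± 0.26. The part of these cells in the Fap counts was not tested.

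Macrophage markers summed to 81.8 and 70.1 CPM in control and 55.9 and 45.6 CPM in knockout islets, with all 7 negative (median -0.70) where 49.4% of all tested genes were. None of the 7 was called by edgeR, 5 had an unadjusted p under 0.05 and in 6 the groups did not overlap, with knockout lower. Over all tested genes 3.51% had an unadjusted p under 0.05 in edgeR. Groups did not overlap in 30.3% of them, and in 15.0% with the knockout libraries lower. Endothelial markers summed to 502 and 517 against 434 and 504 CPM, with 6 of 8 negative (median -0.21) and 0 called. Both cell types can carry Dpp4. The macrophage sum was lower in both knockout libraries, as was Dpp4, while the endothelial sum of knockout replicate 2 exceeded that of control replicate 1. Their part in the Dpp4 values was not tested. Acinar markers varied most, from 66.7 CPM in control replicate 2 through 1230 CPM in knockout replicate 1 and 2712 CPM in control replicate 1 to 5691 CPM in knockout replicate 2. Beta cell markers summed to 19388 and 16807 against 15734 and 21170 CPM, with a median of 0.001 over 11 tested genes.

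**Figure D5:**
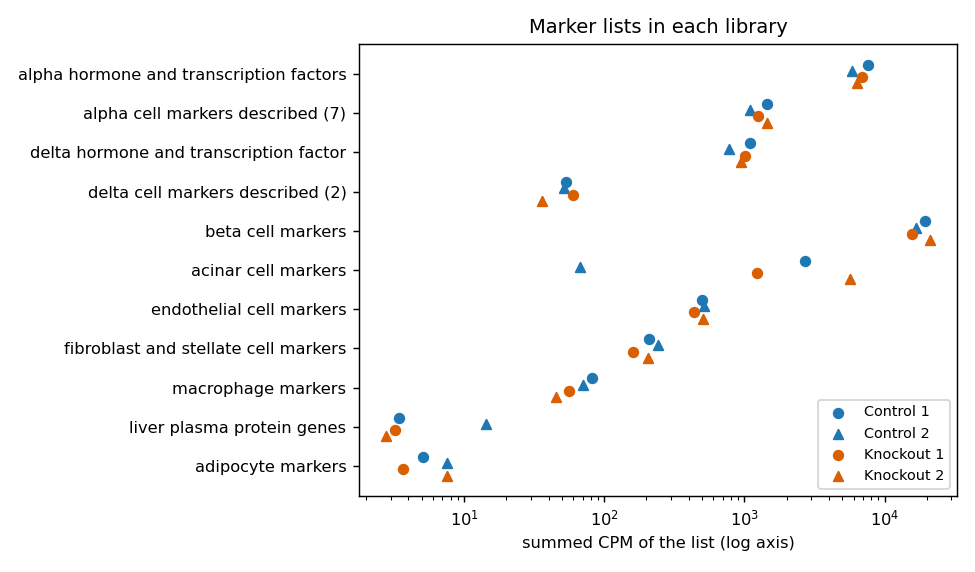
Summed CPM (log axis) of marker lists in the 2 control (blue) and 2 knockout (orange) libraries, with replicate 1 as circles and replicate 2 as triangles. The 7 alpha cell markers sum to 1094 to 1443 CPM, the 2 delta cell markers to 36.2 to 59.4 CPM, and the acinar list spans 66.7 to 5691 CPM.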

How the data were processed

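RNA-seq was made from islets of 2 control and 2 Tspan7 knockout samples with a directional library kit, per the labels' protocols. The authors deposited raw counts per Ensembl gene. HISAT2, featureCounts and the build GRCm39 are named in the submitters' processing notes, without versions; the sources used here do not give the annotation, strand setting or handling of multi-mapping reads. Symbols and exon lengths came from GENCODE M21 (GRCm38), which named 52403 of 52636 identifiers, so no coordinates are printed and the reference served for names, lengths and gene order.

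Counts were tested in edgeR 4.0.16 (R 4.3.3) over the 16924 genes kept by filterByExpr (minimum count 10), with trimmed-mean scaling and a robust quasi-likelihood fit, two-sided. Benjamini-Hochberg adjustment ran over all tested genes, with a threshold of 0.05. Every adjusted p in the results is from this test. Alternatives used DESeq2 1.42.0, limma 3.58.1, other scalings, no filter, a replicate block and leaving out each library. Confidence intervals of fold changes came from the quasi-likelihood fit and include the scatter between libraries. The binomial interval for Fap and the 3-count floor cover counting error only. The floor was 0.312 to 0.398 CPM.

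The markers and lists were chosen with earlier results of these data known. Named genes were the 9 markers, Tspan7, Gcg, Sst, up to 3 genes of smallest p and the most abundant gene of each list, up to 3 neighbours on each side of Gcg, and 3 genes of nearest pattern for Ttr and Rbp4 (RMS difference of log2 CPM, mean log2 CPM of at least 3, no predicted gene names). Of those selected, examples are given, and results for some genes are not reported here. Stra6, Mboat4, Aldh1a3, Ghrl, Ffar4, Spock3, the antisense genes and the liver and fat cell genes were named after their values were seen.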

Additional observations from a re-analysis of the deposited data

How the results depend on the processing

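No marker was called under any of the alternatives run for the markers (all below except the crossed pairing), and their smallest adjusted p was 0.588 (Ttr without control replicate 1). Over all genes edgeR called 1 gene, 62 with no low-count filter (15 higher and 47 lower), 4 with DESeq2 and 6 with the replicate block. No label pairs the replicate numbers, and the deviations of same-numbered libraries correlated at -0.30 across genes. The crossed pairing, added after seeing the data, gave 2 calls. With 1 library left out the count ran from 1 to 48, with 48 without control replicate 1 and 2 without control replicate 2. Of the companion lists, 1 gene was called with the replicate block (Spp1, -1.54) and 0 to 1 with 1 library left out (Fgb, -4.66, without control replicate 1). With all libraries, 43 of 48 marker values kept their sign. The others were Loxl4 (-0.003 with DESeq2, -0.11 with limma-voom, -0.068 with the replicate block) and Ghsr (0.009 with no filter, 0.007 with limma-voom). With 1 library left out the ranges were -0.19 to 0.44 for Ttr, -0.87 to 0.24 for Gc, -0.34 to 0.78 for Slc38a5, -0.96 to 0.54 for Loxl4, -0.63 to 0.21 for Rbp4 and -0.12 to 0.11 for Ghsr, and without change of sign -0.29 to -0.11 for Dpp4 and 0.07 to 0.41 for Slc7a2. The lone library of a group was then assumed to vary like the others. The cause of these shifts was not tested. Depth limits Fap, Loxl4 and Slc38a5, with at most 49 counts per library.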

Other observations

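Other delta cell and endocrine genes of low abundance had the order of Rbp4 at both ends, highest in knockout replicate 1 and lowest in knockout replicate 2. Ffar4, a fatty acid receptor gene, measured 6.63 and 6.59 CPM in control and 8.0 and 4.24 CPM in knockout islets. Spock3, a delta cell proteoglycan gene, measured 5.80 and 6.06 against 7.48 and 4.11 CPM, and the ghrelin gene Ghrl 4.61 and 5.74 against 6.34 and 3.58 CPM. Sst itself, at 997 and 936 CPM in the knockout libraries, and Hhex, at 6.54 and 5.17 CPM, differed less between them.

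Aldh1a3, an enzyme gene of retinoic acid synthesis that is raised in stressed beta cells, varied in the same order of libraries as Gc. It measured 3.79 and 9.57 CPM in the control libraries and 1.97 and 27.4 CPM in the knockout libraries. Both genes were lowest in knockout replicate 1 and highest in knockout replicate 2. These ends were not particular to them. The summed beta cell markers had the same ends, at 15734 CPM in knockout replicate 1 and 21170 CPM in knockout replicate 2. Aldh1a3 was picked from the retinoid list after its values were seen, and no relation was tested over 4 libraries.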
